A study of Homo sapiens with 32 samples.

Results

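The extracellular matrix is the mesh of secreted proteins that surrounds cells, and integrins are the membrane receptors that hold cells to it. Genes of this system were taken by symbol: collagen chains, laminin, nidogen, perlecan and agrin chains, fibronectin, fibrillins, fibulins and thrombospondins, integrin α and β chains, syndecans and glypicans, the ADAM, ADAMTS and MMP proteases with their TIMP inhibitors, and the lysyl oxidase, prolyl hydroxylase and lysyl hydroxylase enzymes that finish collagen. Antisense genes were dropped. Of the 7978 genes with counts, 76 were members, and they held 311 of the 26104 merged m6A peaks. The gene name table holds 218 symbols of this kind, and those without counts were not analysed here. RefSeq lists 74 of the 76 as protein-coding. The remaining pair were ADAMTS16-DT, a noncoding transcript divergent to ADAMTS16, and ITGB1P1, a pseudogene of ITGB1 whose reads cannot be told apart from those of its parent with certainty.

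Fibrillar collagens give tissue its tensile strength, whereas laminins, type IV collagen, nidogens and perlecan form the basement membrane, the thin sheet on which epithelia rest. Pancreatic epithelium and islet cells contact a basement membrane through integrins that pair an α with a β chain, most often β1. Proteases of the MMP, ADAM and ADAMTS families cut matrix and membrane proteins, and TIMPs inhibit them. N6-methyladenosine (m6A) is a methyl mark on adenosines inside mRNA. It is placed by a METTL3 and METTL14 complex and bears on how long a transcript lasts.

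H1 and MEL1, both established lines of human embryonic stem cells (hESCs), were carried through a directed differentiation in culture without a genetic change or drug arm. Cells were collected undifferentiated (S0), as posterior foregut (S3), as pancreatic progenitors (S4) and as immature β-like cells (S6). Each line had 2 replicates at each stage, which makes 16 preparations of mRNA, and each preparation gave an input library and a library of fragments pulled down with an m6A antibody (IP), 32 libraries in all. The cultures were not sorted before RNA was taken, so a stage is a mixture of cells, and fewer cells of a type cannot be told apart from less RNA per cell. The labels number the replicates of a line and do not say whether they were separate differentiations, so the p-values measure the spread between these samples. Stages were compared with each other (S3 vs S0, S4 vs S3, S6 vs S4, S6 vs S0), and these comparisons share libraries.

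Input libraries held 2652830 to 6879256 counted reads and IP libraries 2378881 to 15674899, the shallowest being both MEL1 S4 IP libraries. No replicate pair was as close as counting error alone would make it, with a chi-square per degree of freedom of 1.77 to 65.9. In the H1 S4 pair, the input libraries stood further apart (r = 0.9645 over log2 levels of all genes) than the other 7 replicate pairs (0.9733 to 0.9893). By chi-square per degree of freedom the MEL1 S0 input pair was further apart (27.7) than the H1 S4 input pair (14.5). Replicate 1 correlated with the H1 S3 libraries at 0.9725 and 0.9713, and replicate 2 was nearer to the H1 S6 libraries (0.9543 and 0.9529) than replicate 1 was (0.9425 and 0.9408). These correlations run across genes, which are not independent replicates. Of the 76 members, 5 differed by more than 1 on the log2 scale between these replicates. ADAMTS8 had 1.23 and 30.9 CPM (reads scaled to a common library total), MMP17 3.21 and 36.1, ADAMTS15 37.8 and 192, MMP16 2.22 and 11.2, and COL23A1 1.48 and 5.90. Named results that rest on replicate 2 are given with and without it.

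Marker genes of each stage were summed as a check of the labels. Over the 8 of 11 stem-cell genes with counts, the level was 4042 to 5904 CPM at S0 and 364 to 1770 CPM at S3, and that of the 7 posterior foregut genes was 15.2 to 15.9 CPM at S0 and 1021 to 3037 CPM at S3. Of the pancreatic progenitor list 4 of 6 genes had counts, PDX1 and SOX9 among them, and summed to 13.8 to 26.3 CPM at S0, 42.6 to 111 CPM at S3, 43.7 to 102 CPM at S4 and 36.4 to 164 CPM at S6, so they set S0 apart from the later stages but not S4 from S3 or S6. NKX6-1 and PTF1A were not analysed here. The 6 of 9 β-like markers with counts summed to 805 to 1124 CPM at S0, 738 to 3858 CPM at S3, 2445 to 4528 CPM at S4 and 5511 to 8120 CPM at S6. Most of the sum came from SLC2A1, with means of 785 CPM at S0 and 2760 CPM at S6, and from INS-IGF2. The means of INS-IGF2 were 4.46 CPM at S0, 1138 CPM at S3 and 3084 CPM at S6. INS, NEUROD1 and PAX6 were not analysed here. Mesenchymal cells are a known source of matrix transcripts, and 5 of 15 of their markers had counts, at 208 to 241 CPM at S0, nearly all of it THY1, which stem cells also express, and 28.4 to 85.1 CPM at the later stages. Within this list, means of TWIST1 were 1.22 CPM at S0 and 25.0 CPM at S6 (4.27 ± 0.60, adjusted p = 4.96e-05) and those of ZEB1 1.35 and 17.3 CPM (3.66 ± 0.46, adjusted p = 1.85e-05), and both rose with the matrix genes. PDGFRA rose at S3 vs S0 from 0.946 to 21.2 CPM (4.44 ± 0.77, adjusted p = 0.000355), and PDGFRB was 12.3 CPM at S0 and 12.1 CPM at S6. Hepatic markers, 4 of 6 with counts, reached 28543 to 32507 CPM in MEL1 at S3 and 62578 to 65715 CPM at S4, against 443 to 451 and 146 to 200 CPM in H1. The part of these cells in the results was not tested.

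The sequence immediately upstream of the transcription start is shown for 4 members that rose early and were read deeply: FN1 (fibronectin), LAMB1 (laminin β1), HSPG2 (perlecan) and MMP14 (membrane-type matrix metalloproteinase). They were copied from RefSeq promoter records on GRCh38.p14 and run 5′ to 3′ on the strand of the gene over the 250 bases before its first listed start. FN1 lies at chr2:215436069-215436318 on the minus strand, LAMB1 at chr7:108003162-108003411 on the minus strand, HSPG2 at chr1:21937311-21937560 on the minus strand and MMP14 at chr14:22836335-22836584 on the plus strand. Capitals mark the GC box GGGCGG on either strand.
FN1: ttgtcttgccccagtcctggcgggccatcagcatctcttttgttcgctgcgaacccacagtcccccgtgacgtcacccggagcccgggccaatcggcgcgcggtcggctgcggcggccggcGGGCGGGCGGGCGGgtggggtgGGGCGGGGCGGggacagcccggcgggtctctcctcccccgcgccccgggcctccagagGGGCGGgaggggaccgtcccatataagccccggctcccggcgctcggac
LAMB1: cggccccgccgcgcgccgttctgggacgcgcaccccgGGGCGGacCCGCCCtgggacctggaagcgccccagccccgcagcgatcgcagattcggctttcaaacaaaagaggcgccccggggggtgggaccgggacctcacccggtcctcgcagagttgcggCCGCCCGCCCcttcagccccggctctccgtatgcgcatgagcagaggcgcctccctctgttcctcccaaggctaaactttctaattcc
HSPG2: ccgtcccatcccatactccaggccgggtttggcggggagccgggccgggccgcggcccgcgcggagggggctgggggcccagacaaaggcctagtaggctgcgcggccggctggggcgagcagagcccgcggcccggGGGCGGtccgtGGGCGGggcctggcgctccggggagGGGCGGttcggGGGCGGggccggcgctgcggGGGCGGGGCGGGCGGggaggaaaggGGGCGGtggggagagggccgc
MMP14: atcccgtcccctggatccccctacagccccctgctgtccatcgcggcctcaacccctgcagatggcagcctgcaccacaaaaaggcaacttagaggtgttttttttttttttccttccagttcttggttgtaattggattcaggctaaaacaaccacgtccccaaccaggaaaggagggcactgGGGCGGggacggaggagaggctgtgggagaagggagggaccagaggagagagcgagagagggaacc
Perlecan's stretch held 8 copies of the GC box, fibronectin's 6, that of LAMB1 4 and that of MMP14 1, and their GC content was 82.8%, 76.4%, 70.4% and 56.8%. Promoter records were found for 50 members. In the 250 bases before the start, their median GC content was 72%, against 58% over 27305 promoters. In the window from 250 bases before to 50 after the start, 43 of the 50 (86%) held GGGCGG, against 44.6% of all promoters. The letters TATAAA were in 4 of them (8%, against 12% of all promoters), and neither TGTTTAC, the core that forkhead factors bind, nor AGATAA, read by the GATA factors, was in any (3.41% and 10.5% of all promoters). Both strands were searched, overlapping copies were counted separately, and no motif contains another. All promoters here include those of genes without counts in these cells. The members were not compared with the promoters of the genes with counts alone. Such matches describe these letters in these windows and are not binding sites.

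Matrix and integrin transcripts made up a larger share of the input reads after differentiation. They took 0.301% to 0.562% of the counted input reads at S0, 1.35% to 1.78% at S3, 1.35% to 2.31% at S4 and 1.23% to 2.72% at S6, so that the S0 libraries did not overlap with the later ones. The highest share was that of MEL1 S6 replicate 1, where COL2A1 alone held 34222 of the 81141 member reads. With mitochondrial reads, which took 11.6% to 41.0% of the input counts, left out, the range was 0.510% to 0.763% at S0 and 1.40% to 3.26% at the later stages. Changes in each gene were tested with edgeR's quasi-likelihood test over all 7973 genes that passed the minimum of 10 reads, and all 76 members passed. Calls required a Benjamini-Hochberg adjusted p below 0.1 together with a fold of 2 or more.

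At S3 vs S0, 25 members rose (32.9%, against 15% of all genes) and 10 fell (13.2%, against 13.8%). At S6 vs S0, 36 rose (47.4%, against 17.5%) and 8 fell (10.5%, against 13.8%). The median log2 fold change over the members was 0.65 and 1.05 in these comparisons, and -0.02 and 0.03 over all genes. Later steps moved fewer members. From S3 to S4, 6 rose (7.89%, against 1.49% of all genes). None was called lower (0.351% of all genes were), either by edgeR or among the 12 members that DESeq2 called, and 6 members were lower at an unadjusted p under 0.05. Without MEL1 S3 replicate 1, 3 members were called at this step. ADAMTS8 and ADAMTS15, both among the 6 that rose, were not called without H1 S4 replicate 2 (adjusted p = 0.600 and 0.116). At S6 vs S4, 4 rose (5.26%, against 2.85%) and 3 fell (3.95%, against 2.33%). Leaving out H1 S4 replicate 2 took the calls at S6 vs S4 from 7 to 12, and leaving out both MEL1 S4 preparations took them to 4.

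**Figure D1:**
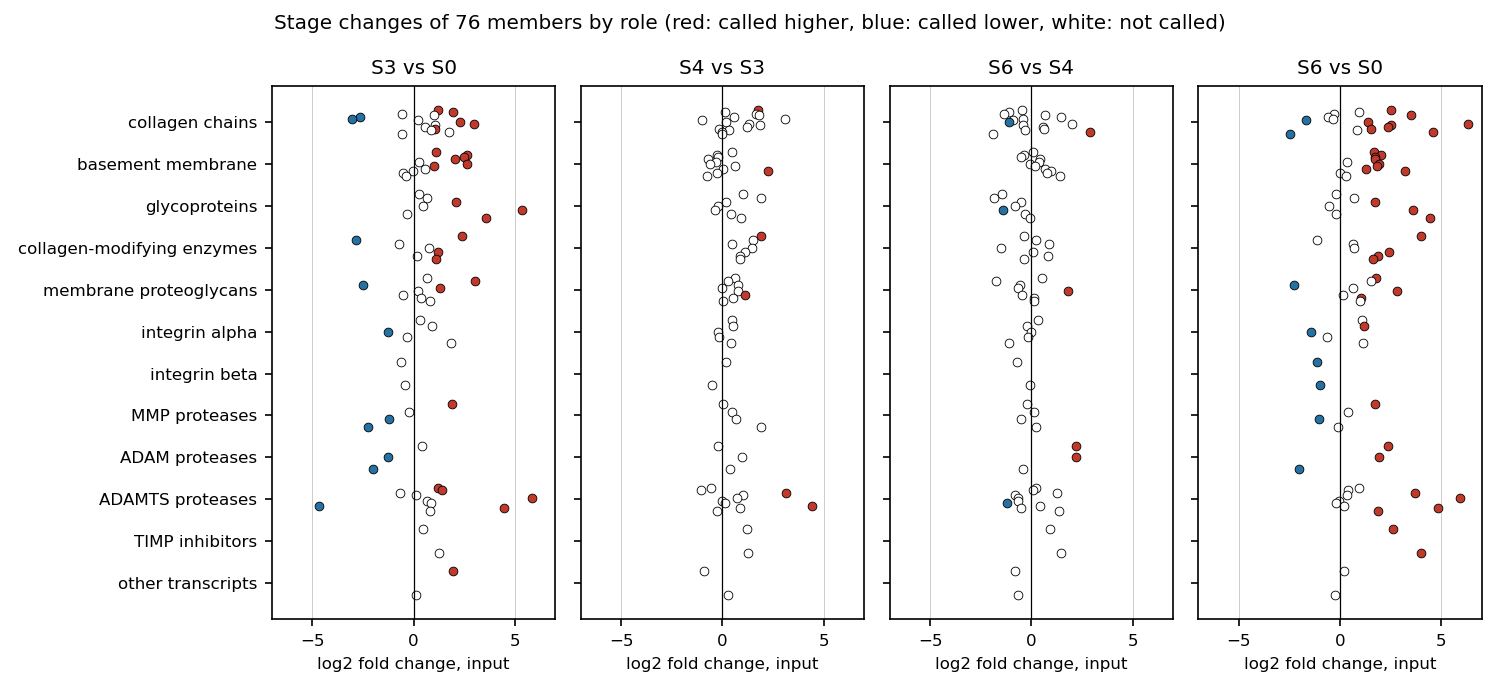
Log2 fold change of the input level of each of the 76 members in the 4 stage comparisons (x axis), grouped by role (y axis), with called members in red (higher) and blue (lower). At S6 vs S0, 8 of 11 basement membrane genes and 8 of 15 collagen chains were called higher, while both integrin β chains were called lower.

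Collagen chains are secreted as trimers that assemble into fibrils or networks. Of 15 chains, 5 rose and 2 fell at S3 vs S0, and 8 rose and 2 fell at S6 vs S0. COL2A1, the chain of type II collagen best known from cartilage, had 117 and 115 CPM in the H1 libraries and 68.1 and 79.0 CPM in the MEL1 libraries at S0. At S6 it had 1407 and 1404 CPM in H1 and 12781 and 11925 CPM in MEL1. These levels did not overlap between the stages, and the log2 fold change was 6.31 ± 1.19 (SE, adjusted p = 0.000587). At S3 the lines were on opposite sides of S0. H1 had 1557 and 1556 CPM and MEL1 49.0 and 61.8 CPM, and the joint log2 fold change was 2.99 ± 1.04 (adjusted p = 0.0314). COL9A2, a type IX chain that sits on the surface of type II fibrils, had 7.62 to 13.0 CPM at S0, 31.1 and 36.2 CPM in H1 at S6 and 566 and 501 CPM in MEL1 at S6. It rose by 4.59 ± 1.07 at S6 vs S0 (adjusted p = 0.00283). At S6 vs S4 COL9A2 rose by 2.89 ± 0.96 (adjusted p = 0.0928), a call that the fit with a replicate block (adjusted p = 0.150) and 11 of the 16 fits that left out 1 library did not keep (adjusted p up to 0.217, without MEL1 S6 replicate 1).

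COL18A1 encodes the collagen XVIII of basement membrane zones. It had 1037 and 1040 CPM in H1 and 259 and 388 CPM in MEL1 at S0, and 2757, 2656, 2414 and 2626 CPM at S3. All S3 libraries were above all S0 libraries, with a log2 fold change of 1.92 ± 0.43 (adjusted p = 0.00245). Its S6 levels were 947 and 938 CPM in H1, below S0, and 1671 and 1808 CPM in MEL1. COL11A1, a minor chain of fibrils, was one of the genes that moved at successive steps, from 8.49 to 28 CPM at S0 to 24.4 to 53.4 CPM at S3 and 116 to 154 CPM at S4. It rose by 1.20 ± 0.27 at S3 vs S0 and by 1.73 ± 0.27 at S4 vs S3 (adjusted p = 0.00263 and 0.00457). COL6A1, of the beaded type VI microfibrils, was 181 to 389 CPM at S0 and 715 to 1137 CPM at S6 (1.53 ± 0.27, adjusted p = 0.000341). COL5A1 and COL5A2, chains that start fibrils, and COL1A2, of type I collagen, rose at S6 vs S0 by 2.50 ± 0.60, 2.37 ± 0.37 and 3.5 ± 0.57. COL27A1, another fibrillar chain, rose at S3 vs S0 from 12.2 to 15.6 CPM to 39.5 and 44.3 CPM in H1 and 116 and 130.4 CPM in MEL1 (2.30 ± 0.31, adjusted p = 3.54e-05). It fell at S6 vs S4 by 1.10 ± 0.29 (adjusted p = 0.0352), and its adjusted p was 0.135 without MEL1 S4 replicate 2 and 0.101 without MEL1 S6 replicate 1, while without H1 S6 replicate 2 (0.0963) its fold was just under 2.

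Among the collagen genes that fell, COL9A3 and COL26A1 did so at S6 and COL23A1 and COL25A1 at S3. COL9A3, another type IX chain, had 11.1 to 18.3 CPM at S0, 0.710 and 0.221 CPM in H1 at S6 and 6.72 and 4.44 CPM in MEL1 at S6 (-2.50 ± 0.68, adjusted p = 0.00779). COL26A1 was at 204 to 308 CPM at S0 and 82.7 to 93.4 CPM at S6, without overlap (-1.68 ± 0.34, adjusted p = 0.000993). COL23A1, a membrane-bound collagen, fell at S3 vs S0 from 4.52 to 9.18 CPM to 0.677 to 1.77 CPM (-2.65 ± 0.65, adjusted p = 0.00443). COL25A1, also membrane-bound, was called lower at S3, but no S3 library held more than 1 read and no S0 library more than 6, so no fold is given.

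Of the 11 basement membrane genes, 6 were called higher and none lower at S3 vs S0. The 6 were COL4A6, HSPG2, LAMA1, LAMB1, LAMB2 and AGRN, and at S6 vs S0, 8 were called higher, these 6 and LAMC1 among them. The lowest log2 fold changes of the group in these comparisons were -0.55 and -0.03, both of NID1, which encodes nidogen-1, a linker of laminin and type IV collagen. LAMB1 had 91.3 and 90.0 CPM in H1 and 119.7 CPM in both MEL1 libraries at S0, and 356, 376, 1274 and 1157 CPM at S3. The lowest S3 library was above the highest S0 library, with a log2 fold change of 2.63 ± 0.25 (adjusted p = 1.08e-06). LAMC1, the γ1 chain shared by most laminins, had 289 and 266 CPM in H1 and 378 and 358 CPM in MEL1 at S0, and 516, 483, 1198 and 1219 CPM at S6 (1.28 ± 0.19, adjusted p = 6.34e-05).

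HSPG2 had 143 and 162 CPM in H1 and 43.0 and 74.0 CPM in MEL1 at S0, and 533, 531, 867 and 851 CPM at S3. Its log2 fold change was 2.48 ± 0.51 (adjusted p = 0.0013). AGRN, agrin, a heparan sulphate proteoglycan of basement membranes, was 159.6 to 409 CPM at S0 and 641 to 1752 CPM at S6 (1.65 ± 0.39, adjusted p = 0.00325). COL4A6, a type IV collagen chain, had 10.1 to 25.8 CPM at S0 and 112 to 130.4 CPM at S3, and it rose by 2.65 ± 0.28 (adjusted p = 3.5e-06). LAMA1, the α1 chain found in early embryos, rose by 2.04 ± 0.27 and LAMB2 by 1.01 ± 0.36 at the same step. LAMA5 and NID2 were at 10.7 CPM or below in every library and were not called between stages. The levels given here are not corrected for transcript length and are not compared between genes.

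Among the 7 glycoproteins, 3 rose at S3 vs S0 and the same 3 at S6 vs S0: FN1, FBN2, which encodes fibrillin-2 of developing microfibrils, and THBS3, a thrombospondin. FN1, fibronectin, the main ligand of integrin α5β1, had 51.2 and 49.8 CPM in H1 and 58.0 and 49.2 CPM in MEL1 at S0. At S3 it had 1825 and 1909 CPM in H1 and 2772 and 2431 CPM in MEL1. Its log2 fold change of 5.37 ± 0.32 (adjusted p = 8.25e-09) was the largest rise among the members with more than 3 reads in some S0 library. At S4 the levels were 1204 and 852 CPM in H1 and 2870 and 2584 CPM in MEL1. By S6 they were 370.1 and 349 CPM in H1 and 1131 and 1079 CPM in MEL1, a fall of 1.39 ± 0.27 on the log2 scale vs S4 (adjusted p = 0.00772). This call ended without both MEL1 S4 preparations (-0.97, adjusted p = 0.166) and without the cell line term (-1.36, adjusted p = 0.145). In MEL1 every S6 library was below every S4 library, and the same was true in H1. FBN2 was 8.41 to 13.0 CPM at S0 and 32 to 62.4 CPM at S3 (2.10 ± 0.23, adjusted p = 4.99e-06). THBS3 had at most 3 reads in each S0 library and was at least 5.82-fold higher at S3 and at least 10.9-fold higher at S6, counted against 3 reads per library.

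Of the 7 collagen-modifying enzymes, 3 rose and 1 fell at S3 vs S0, and 4 rose at S6 vs S0. PLOD1, the lysyl hydroxylase of the collagen helix, had 244 and 243 CPM in H1 and 189 and 245 CPM in MEL1 at S0, and 837, 825, 847 and 822 CPM at S6. The lines overlapped at both stages while the stages did not, and the log2 fold change was 1.85 ± 0.14 (adjusted p = 7.73e-08). P4HA1, a subunit of prolyl 4-hydroxylase, was 5.96 to 12 CPM at S0 and 37.5 to 64.6 CPM at S6 (2.39 ± 0.36, adjusted p = 9.02e-05). PLOD2, a lysyl hydroxylase of the collagen ends, rose by 1.6 ± 0.41 (adjusted p = 0.00514). LOX, lysyl oxidase, which starts crosslinks, was 0.411 to 1.21 CPM at S0, 1.03 to 9.93 CPM at S3 and 6.42 to 28.6 CPM at S4. LOX rose by 1.92 ± 0.41 at S4 vs S3 (adjusted p = 0.0322, and 0.109 without MEL1 S3 replicate 1). LOXL2, a relative that also crosslinks type IV collagen, fell at S3 vs S0 from 30.7 to 43.2 CPM to 13.0 and 12.2 CPM in H1 and 0 and 0.226 CPM in MEL1 (-2.84 ± 0.70, adjusted p = 0.00467).

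Syndecans and glypicans carry heparan sulphate at the cell surface and bind growth factors as well as matrix. SDC1, syndecan-1 of epithelia, had 43.8 to 88.9 CPM at S3 and 67.4, 89.4, 134 and 132 CPM at S4. At S6 SDC1 had 259 and 237 CPM in H1 and 546 and 489 CPM in MEL1, all above the S4 libraries, with a log2 fold change vs S4 of 1.83 ± 0.26 (adjusted p = 0.000775). SDC2 rose at S4 vs S3 (1.11 ± 0.17, adjusted p = 0.00422), from 36.3 to 56.1 CPM to 85.9 to 120.2 CPM. GPC3, glypican-3, an oncofetal protein of liver and embryo, had 122 and 133 CPM in H1 and 49.6 and 44.2 CPM in MEL1 at S0, and 379.8, 375, 2069 and 2238 CPM at S3 (3.04 ± 0.79, adjusted p = 0.00691). GPC4, another glypican, fell from 98.8 to 149 CPM at S0 to 5.76 to 45.1 CPM at S3 (-2.48 ± 0.39, adjusted p = 0.000153) and stayed lower at S6, with 20.9 to 30.0 CPM. GPC1 and SDC3 rose and GPC4 fell at S6 vs S0, by 1.79 ± 0.26, 1.0 ± 0.22 and -2.28 ± 0.39.

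Of the 7 integrin chains, 1 fell at S3 vs S0, and 1 rose and 3 fell at S6 vs S0. The α6 chain ITGA6, a laminin receptor of stem cells and epithelia, had 214 and 202 CPM in H1 and 302 and 223 CPM in MEL1 at S0 and 89.7, 102, 107 and 89.1 CPM at S3. It fell by 1.26 ± 0.17 (adjusted p = 4.73e-05) and was lower at S6 too (-1.46 ± 0.18, adjusted p = 1.15e-05). Both β chains fell at S6 vs S0. ITGB1, the common partner of most matrix-binding α chains, had 176 and 169 CPM in H1 and 315 and 271 CPM in MEL1 at S0, and 92.9, 89.5, 121 and 115 CPM at S6 (-1.13 ± 0.24, adjusted p = 0.00143). ITGB5, which pairs with αv to bind vitronectin, was 158 to 233 CPM at S0, 60.4 and 56.9 CPM in H1 at S6 and 139 and 146 CPM in MEL1 at S6 (-1.01 ± 0.22, adjusted p = 0.00165). ITGA5, the α5 chain of the fibronectin receptor, rose from 49.0 to 90.7 CPM at S0 to 77.6 and 79.6 CPM in H1 and 333 and 245 CPM in MEL1 at S6 (1.19 ± 0.23, adjusted p = 0.000771). The S0 and S6 libraries of ITGA5 overlapped, since the H1 S6 levels lay within the range of S0. ITGA7 was not called between stages, and its log2 fold change at S6 vs S0 was -0.64 ± 0.36.

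**Figure D2:**
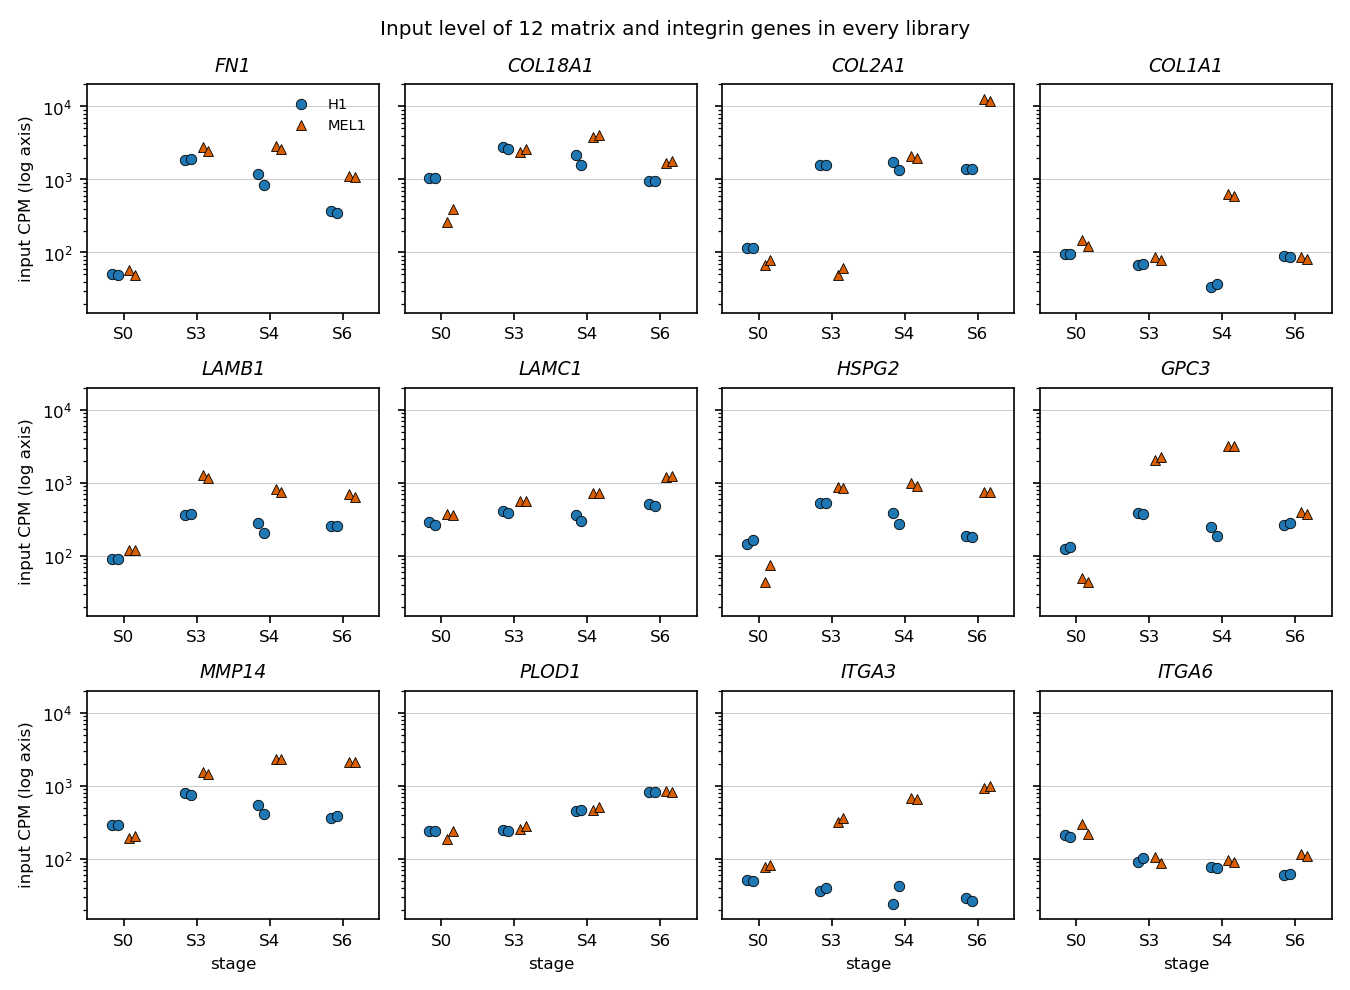
Input level (CPM, log axis) of 12 members in every library at each stage, with H1 as circles and MEL1 as triangles. FN1 rose in both lines at S3, COL2A1 had 49.0 and 61.8 CPM in MEL1 against 1557 and 1556 CPM in H1 at S3, ITGA3 was 950.5 and 992 CPM in MEL1 against 29.3 and 26.7 CPM in H1 at S6, and PLOD1 was 822 to 847 CPM in the 4 S6 libraries.

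Of the 4 MMPs, 1 rose and 2 fell at S3 vs S0. MMP14, which cuts collagen and activates other MMPs at the cell surface, had 296 and 295 CPM in H1 and 194 and 203 CPM in MEL1 at S0, and 789, 750.2, 1544 and 1468 CPM at S3. It rose by 1.87 ± 0.47 (adjusted p = 0.00504) and was higher at S6 than at S0 by 1.70 ± 0.48 (adjusted p = 0.0101). MMP15, another membrane-type enzyme, was not called between stages, with a log2 fold change at S6 vs S0 of 0.39 ± 0.53. MMP16 and MMP17, also membrane-anchored, fell at S3 vs S0 by 1.23 ± 0.42 and 2.28 ± 0.66. The call of MMP17 ended in MEL1 alone (-1.62, adjusted p = 0.162) and without the cell line term (-2.51, adjusted p = 0.103). MMP17 had 30.0 and 33.4 CPM in H1 and 2.26 and 4.13 CPM in MEL1 at S0, and 3.74, 6.18, 0 and 2.03 CPM at S3. In H1 it had 23.6 and 19.2 CPM at S6.

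ADAM proteases release cell-surface proteins, although some family members, ADAM11 and ADAM23 among them, lack the catalytic site. ADAM15 had 3.36 to 13.7 CPM at S4 and 29.3, 21.6, 47.1 and 41.5 CPM at S6, a rise of 2.21 ± 0.56 (adjusted p = 0.0296). The call of ADAM15 ended without the cell line term (adjusted p = 0.184) and without both MEL1 S4 preparations (adjusted p = 0.217), and in H1 alone the log2 fold change was 0.95. ADAM11 rose at the same step by 2.18 ± 0.58 (adjusted p = 0.0374, and 0.106 without MEL1 S4 replicate 1). ADAM23 fell at S6 vs S0, from 20.5, 18.2, 31.3 and 15 CPM to 12.6 and 13.0 CPM in H1 and 3.36 and 2.82 CPM in MEL1 (-2.05 ± 0.65, adjusted p = 0.0187, and -1.35 without MEL1 S0 replicate 1). In H1 alone the log2 fold change of ADAM23 was -0.59, under a fold of 2.

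ADAMTS enzymes are secreted proteases that trim proteoglycans and procollagens. ADAMTS7, which degrades cartilage oligomeric matrix protein, had 218 and 209 CPM in H1 and 86.2 and 125 CPM in MEL1 at S0. Its S4 levels were 291, 247, 332 and 336 CPM and its S6 levels 126, 121, 138 and 140.0 CPM, a fall of 1.21 ± 0.25 (adjusted p = 0.0103) with no overlap. Without both MEL1 S4 preparations the log2 fold change of ADAMTS7 was -0.69 (adjusted p = 0.246). ADAMTS9 and ADAMTS18 had at most 3 reads and 1 read in each S0 library. Counted against 3 reads per library, ADAMTS9 was at least 10.3-fold higher at S3 and at least 17.0-fold higher at S6, and ADAMTS18 at least 6.82-fold and 8.13-fold higher. ADAMTS18 had 0 CPM in 1 MEL1 S3 library and 4.06 CPM in the other. ADAMTS1 and ADAMTS12 rose at S3 vs S0 by 1.20 ± 0.25 and 1.39 ± 0.41. ADAMTSL4, a relative without protease activity, was called at S6 vs S0 from levels of 3.73 CPM or less.

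ADAMTS8 and ADAMTS15 were called higher at S4 vs S3, and both had their highest S4 level in H1 S4 replicate 2. ADAMTS8 fell at S3 vs S0 (-4.69 ± 1.13, adjusted p = 0.00413), from 7.49 and 7.73 CPM in H1 and 3.5 and 3.48 CPM in MEL1. It had 0.197 and 1.03 CPM in H1 and 0 CPM in both MEL1 libraries at S3, and 1.23, 30.9, 0.840 and 0 CPM at S4 (4.42 ± 1.11, adjusted p = 0.0604). Without H1 S4 replicate 2 its log2 fold change was 1.46 (adjusted p = 0.600), it was 5.78 without H1 S3 replicate 2 (adjusted p = 0.116), and with a replicate block it was 4.10 (adjusted p = 0.122). Leaving out H1 S3 replicate 1, MEL1 S3 replicate 1 or MEL1 S3 replicate 2 also ended the call (adjusted p = 0.197, 0.157 and 0.122). ADAMTS15 had 6.90, 8.45, 1.0 and 5.64 CPM at S3 and 37.8, 192, 8.82 and 9.22 CPM at S4 (3.11 ± 0.71, adjusted p = 0.0449). Its log2 fold change was 1.81 without H1 S4 replicate 2 (adjusted p = 0.116), and the call also ended without either H1 S3 library or MEL1 S3 replicate 1 (adjusted p = 0.116 to 0.135). At S6 ADAMTS15 had 168 and 182 CPM in H1 and 62.7 and 60.1 CPM in MEL1, above every S0 library (3.72 ± 0.70, adjusted p = 0.000589).

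TIMP2 and TIMP3 both rose at S6 vs S0. TIMP3, the inhibitor that stays bound to matrix, had 3.70 to 6.17 CPM at S0, 35.5 and 29.3 CPM in H1 at S6 and 177 and 159.7 CPM in MEL1 at S6 (3.97 ± 0.62, adjusted p = 0.000125). TIMP2, which takes part in MMP activation by MMP14, was 16.9 to 22 CPM at S0 and 69.4 to 181 CPM at S6 (2.58 ± 0.53, adjusted p = 0.00116). Of the other transcripts, ITGB1P1 was 6.72 to 23.1 CPM over all libraries and was not called between stages. ADAMTS16-DT rose at S3 vs S0, with 0.227 to 2.06 CPM at S0 and 0.985, 1.65, 9.01 and 7.22 CPM at S3 (1.94 ± 0.61, adjusted p = 0.0189).

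The lines differed in level and in how the members moved. Averaged over the stages, 14 members were higher in MEL1 than in H1 (18.4%, against 8.85% of all genes) and 8 were lower (10.5%, against 10.2%). With upper-quartile scaling these were 12 and 11. ITGA3, the α3 chain that binds laminin, had the largest difference of the 22. It had 51.0 and 50.5 CPM in H1 and 78.1 and 83.6 CPM in MEL1 at S0, and 29.3, 26.7, 950.5 and 992 CPM at S6, and was higher in MEL1 by 3.41 ± 0.50 over the stages (adjusted p = 0.000118). SDC4, a syndecan of focal adhesions, ADAMTS16 and ADAMTS16-DT were higher in MEL1 by 1.58 ± 0.32, 1.62 ± 0.45 and 1.90 ± 0.45. ADAMTS8, MMP17 and ADAM23 were lower in MEL1 by 2.87 ± 0.68, 2.61 ± 0.46 and 1.88 ± 0.48 on the log2 scale. FBLN2, fibulin-2, and ITGA9, the α9 chain, were lower by 1.73 ± 0.53 and 1.83 ± 0.70, and ITGA9, at 5.36 CPM or below in every library, was lost without either MEL1 S3 library (adjusted p = 0.113). Without both MEL1 S4 preparations FBLN2 and ADAMTS16 were not called (-1.55 and 1.15, adjusted p = 0.102 and 0.104). Hepatic markers and the ductal and exocrine list (3 of 6 genes with counts, 3740 to 4289 CPM in MEL1 and 594 to 835 CPM in H1 at S4) stood higher in MEL1 as well. Of the endothelial list, 3 of 7 genes had counts, and their sum was 52.3 to 58.1 CPM in MEL1 and 13.8 to 15.9 CPM in H1 at S3, and 77.1 to 80.7 and 7.54 to 9.63 CPM at S4. FLT1 was called higher in MEL1 (2.63 ± 0.39), while KDR (-0.96 ± 0.37, adjusted p = 0.0478) and ENG (0.45 ± 0.57) were not called. The endothelial sum was 77.1 to 129.8 CPM at S0 and 7.06 to 12.5 CPM at S6. Stem-cell markers stood higher in H1 after S0, with 1706 to 1770 CPM against 364 to 374 CPM in MEL1 at S3 and 1676 to 2014 against 511 to 533 CPM at S4. The β-like list was 3690 to 3858 CPM in H1 and 738 to 816 CPM in MEL1 at S3, and 5511 to 5561 and 8026 to 8120 CPM at S6. The part of these markers in the line differences was not tested.

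Whether a member moved differently in MEL1 and H1 was tested through the line-by-stage interaction. It was called, at an adjusted p under 0.1, for 46 members at S3 vs S0 (60.5%, against 45.9% of all genes), 38 at S4 vs S3 (50%, against 14.1%), 32 at S6 vs S4 (42.1%, against 23.1%) and 47 at S6 vs S0 (61.8%, against 36.3%). The change in MEL1 was the higher one in 24 of the 46 at S3 vs S0 (52.2%, against 48.3% of all genes called there), 34 of the 38 at S4 vs S3 (89.5%, against 59.4%), 17 of the 32 at S6 vs S4 (53.1%, against 51.1%) and 37 of the 47 at S6 vs S0 (78.7%, against 52.7%). THBS1, thrombospondin-1, moved in opposite directions at S3 vs S0, with 14.5 and 14.3 CPM in H1 and 93.2 and 90.8 CPM in MEL1 at S0, and 94, 101, 12.8 and 14.2 CPM at S3. H1 gave a log2 fold change of 2.75, MEL1 one of -2.76 and the joint fit one of -0.33 ± 0.78.

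COL1A1, a chain of type I collagen, was further apart between the lines at S4 than at S0, S3 or S6. It had 66.4 and 69.0 CPM in H1 and 85.6 and 78.7 CPM in MEL1 at S3, then 33.3, 37.6, 629.8 and 586 CPM at S4, and 90.0, 86.9, 86.6 and 80.7 CPM at S6. The change from S3 to S4 was higher in MEL1 by 3.81 ± 0.20 (adjusted p = 4.45e-11), and the change from S4 to S6 was lower by 4.17 ± 0.20 (adjusted p = 1.18e-11). GPC3 in MEL1 had 3218 and 3196 CPM at S4 and 399 and 371 CPM at S6, while H1 had 245 and 186 CPM and then 264 and 277 CPM. FBLN2 went from 63.8 and 70.0 CPM to 283 and 269 CPM in H1 at S3 and from 51.2 and 67.9 CPM to 10.3 and 7.67 CPM in MEL1 (difference -4.78 ± 0.36, adjusted p = 2.61e-09). MEL1 levels of MMP14 were 2098 and 2152 CPM at S6, against 365 and 388 CPM in H1, a difference in the change from S0 of 3.07 ± 0.19 (adjusted p = 5.77e-10). TIMP2 had 9.51 and 12 CPM in MEL1 at S3 and 117 and 90.4 CPM at S4, against 44.7 and 38.5 CPM and 31.6 and 32.6 CPM in H1 (difference 3.64 ± 0.29, adjusted p = 1.78e-08).

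**Figure D3:**
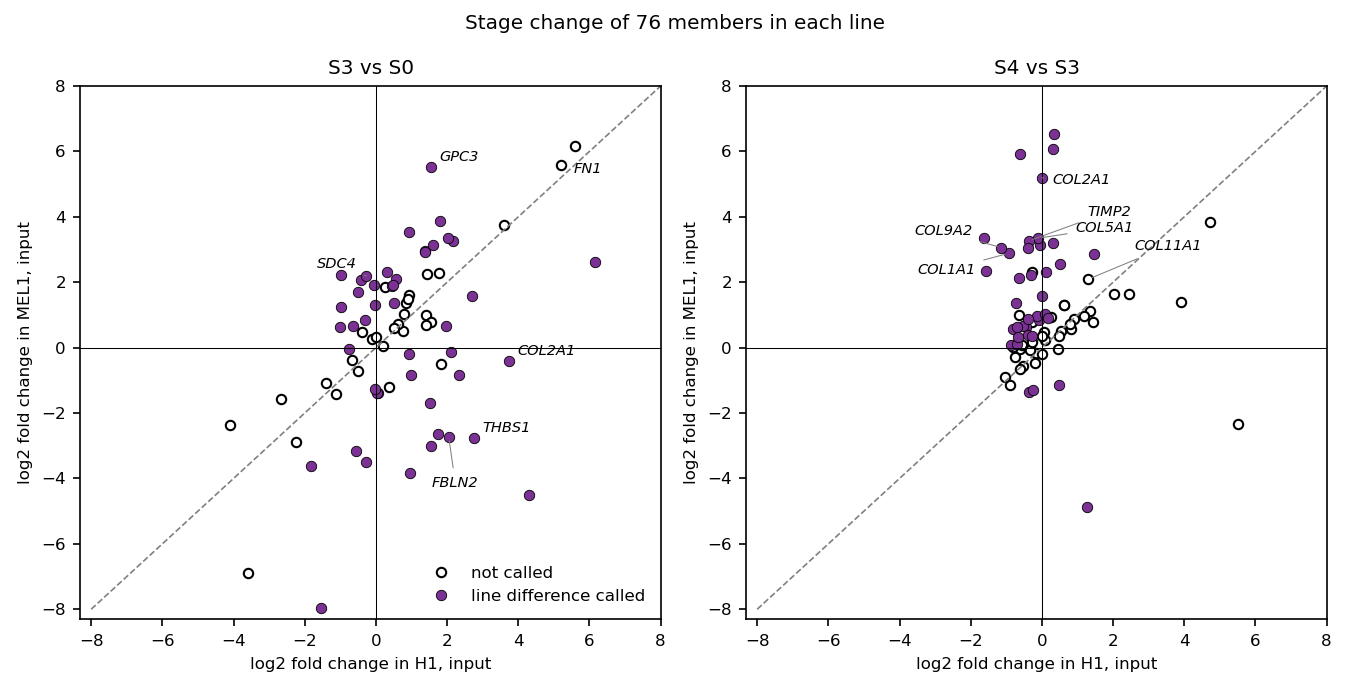
Log2 fold change of the input level of the 76 members in H1 (x axis) and in MEL1 (y axis) for S3 vs S0 and S4 vs S3, with members whose line difference was called marked. THBS1 lies at 2.75 in H1 and -2.76 in MEL1 at S3 vs S0, and 34 of the 38 members called at S4 vs S3 had the higher change in MEL1.

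Genes outside the family that build, bind or sense matrix were taken from a list of 89 symbols, of which 47 had counts. At S3 vs S0, 13 rose (27.7%, against 15% of all genes) and 3 fell (6.38%, against 13.8%). From S4 to S6, 1 rose (2.13%, against 2.85%) and 6 fell (12.8%, against 2.33%), and at S6 vs S0, 15 rose (31.9%, against 17.5%) and 5 fell (10.6%, against 13.8%). EdgeR called none of the 47 at S4 vs S3, DESeq2 called 2 higher, and 6 had an unadjusted p under 0.05. Versican (VCAN), a large matrix proteoglycan, went from a mean of 568 CPM at S0 to 2707 CPM at S3 (2.24 ± 0.29, adjusted p = 2.62e-05) and fell back at S6 vs S4 (-2.26 ± 0.29, adjusted p = 0.000424). Tenascin-C (TNC) rose at S6 vs S0 by 4.21 ± 0.86 and SULF2, which trims heparan sulphate, by 2.63 ± 0.29. Vinculin (VCL), which links integrins to actin, fell by 1.63 ± 0.17, SERPINH1, the collagen chaperone, by 1.78 ± 0.24, and the matricellular genes CCN1 and CCN2 by 2.25 ± 0.46 and 1.66 ± 0.66. Vitronectin (VTN), an integrin ligand and also one of the hepatic markers, had a mean of 2.22 CPM at S0 and 9848 CPM at S4 and was higher in MEL1 by 6.66 ± 0.46 (adjusted p = 1.6e-07). Of the 47, 12 were higher in MEL1 than in H1 (25.5%, against 8.85% of all genes). EdgeR called 0 lower in MEL1 (10.2% of all genes were), 3 were lower at an unadjusted p under 0.05, and DESeq2 called 1 lower.

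Matrix and integrin transcripts had low IP over input ratios. For each merged peak, enrichment is given as log2 of the IP CPM over the input CPM, called the ratio here, and a peak is named by the position that its identifier lists along the gene, which is not a chromosome coordinate. Input and IP libraries were scaled together, and the median ratio over all peaks and preparations was -0.08. A ratio of 0 is thus a point of this scale and not a border between methylated and unmethylated peaks. The median over the 311 member peaks was -1.73 at S0 (0.20 over all peaks), -1.94 at S3 (0.08), -2.53 at S4 (-0.59) and -1.90 at S6 (-0.10). Over all preparations the ratio was below 0 in 233 of the 311 member peaks (74.9%), against 51.3% of all 26104 peaks, and above 1 in 45 (14.5%), against 31.2%. The share below 0 was higher for members than for all peaks at each input depth. For peaks with under 10 mean input reads it was 28.6% against 24.8%, from 10 to 50 reads 79.5% against 59.8%, from 50 to 200 reads 84% against 53.9% and over 200 reads 77.8% against 62.2%. These are shares of peaks, which share transcripts and libraries, and are given without a test.

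Median ratios over all stages ranged widely between roles, and so did input depth. They were lowest in integrin β chains (-3.77, 14 peaks), basement membrane genes (-3.62, 66 peaks), collagen-modifying enzymes (-3.22, 13 peaks), membrane proteoglycans (-2.58, 38 peaks) and collagen chains (-2.44, 76 peaks). They were highest in ADAMTS genes (0.95, 37 peaks) and ADAM genes (0.33, 6 peaks), where 16 and 3 peaks had under 10 mean input reads. Over peaks of all genes the median ratio was 1.03 at under 10 input reads and -0.71 at 10 to 50. Among peaks with at least 10 reads the ADAMTS median was 0.25 (21 peaks), that of ADAM genes 1.53 (3 peaks), that of basement membrane genes -3.70 and that of collagen chains -2.72. At S4 the ADAMTS and ADAM medians were below 0 (-0.32 and -0.46), and at S0 the basement membrane median (-2.74) was under that of the integrin β chains (-2.63). MMP genes (-2.11), glycoproteins (-1.20), integrin α chains (-1.01) and TIMPs (-0.78) lay between. All 21 peaks of COL2A1 were below 0 (-5.42 to -0.65), as were the 5 of FN1 (-4.75 to -3.65). In 30 of the 76 genes no peak had a mean above 0, in 15 all peaks did, and 31 had peaks on both sides. Among peaks with at least 10 mean input reads, the highest were MMP16 at 9416 (3.09), ADAMTS15 at 2851 (3.07), MMP17 at 3451 (2.97), ADAMTS8 at 724 (2.56) and ADAMTS1 at 1764 (2.41). MMP16 at 9416 had 17.2 mean input reads and 532 mean IP reads, and its ratio was above 0 in every preparation, from 0.66 in H1 S4 replicate 2 to 4.08 in H1 S6 replicate 1.

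The lowest ratios were in perlecan. HSPG2 at 14705 had -5.91, with 99.2 mean input reads and 4.9 mean IP reads, and HSPG2 at 4555, 8405 and 14605 had -5.85, -5.77 and -5.55. COL18A1 at 3951 had -5.59. Some members had peaks on both sides of 0, such as COL4A6, with -3.73 at 633 and 3.57 at 8233, although the latter had only 0.4 mean input reads. PLOD1 ran from -4.87 at 201 to 0.77 at 4401, and AGRN from -5.39 at 3051 to 2.19 at 701. Members had a median of 3 peaks, against 2 over all genes. Among the 62 members with more than 1 peak, the most enriched peak was the last along the gene in 16 (25.8%, against 31.7% of all such genes) and the first in 21 (33.9%, against 32.1%).

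**Figure D4:**
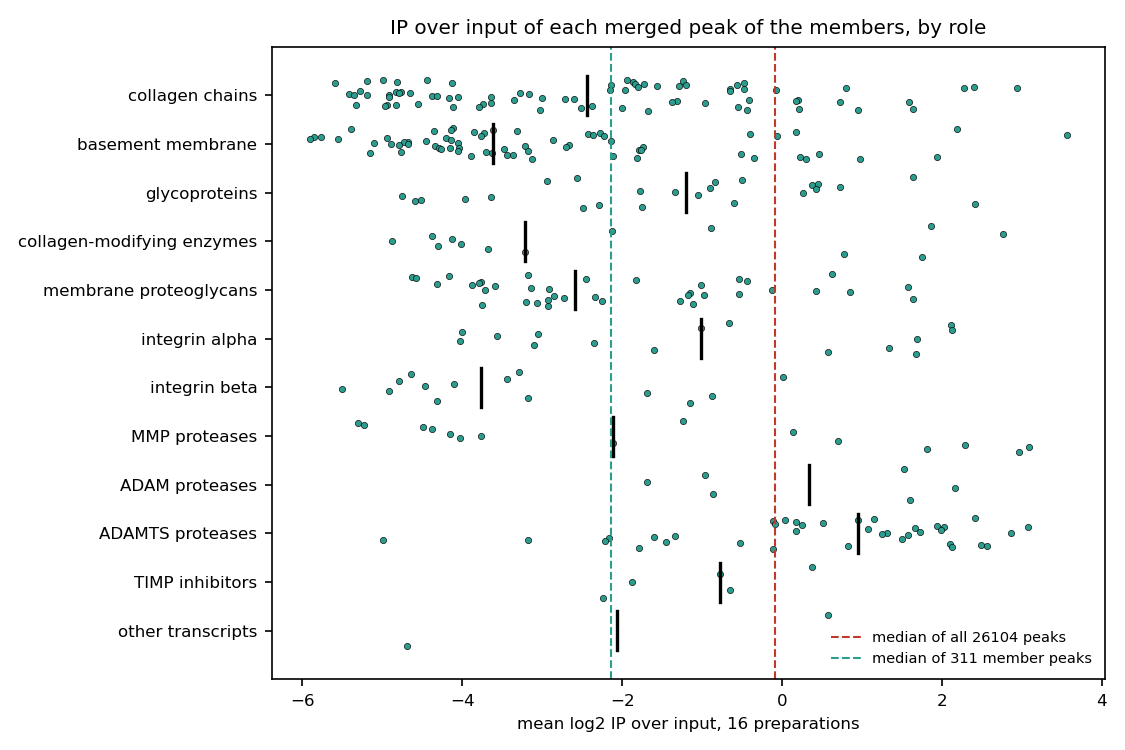
Mean log2 IP over input of each of the 311 member peaks (x axis), grouped by role (y axis). Of the peaks, 233 lie below 0, and the ADAMTS and ADAM groups have medians above 0 over all stages, although not at S4.

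Stage changes in m6A were tested peak by peak through the stage-by-library-type interaction, at the same thresholds. At S3 vs S0, edgeR called no member peak (0.0306% of all peaks were hypermethylated and 0.0192% hypomethylated), 13 were under an unadjusted p of 0.05, and DESeq2 called 1. At S4 vs S3, 6 member peaks in 5 genes were hypermethylated (0.751% of all peaks) and 10 in 8 genes hypomethylated (5.85%). At S6 vs S4, 11 in 8 genes were hypermethylated (5.31%) and 10 in 7 genes hypomethylated (2.26%). At S6 vs S0, 3 were hypomethylated (1.18%). None was called hypermethylated there (0.0766%), 5 were higher at an unadjusted p under 0.05, and DESeq2 called 20 member peaks in all. When input and IP libraries were normalized apart, the split at S4 vs S3 became 6 hypermethylated and 3 hypomethylated, and at S6 vs S4 7 and 15. Many of the called peaks had low ratios and few reads. Of the 16 at S4 vs S3, 3 had a mean ratio above 0 and 7 had under 10 mean IP reads, and of the 21 at S6 vs S4 these were 5 and 8. Leaving out single libraries moved the 16 calls at S4 vs S3 to 4 (without MEL1 S3 replicate 2), 5 (H1 S4 replicate 1), 6 (H1 S3 replicate 2) and 8 (H1 S3 replicate 1), and the 21 at S6 vs S4 to 9 (MEL1 S6 replicate 1), 10 (MEL1 S6 replicate 2), 11 (H1 S6 replicate 1) and 12 (H1 S6 replicate 2).

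ITGA6 at 4351 was the called peak with the most IP reads, with 387 mean input reads and 4916 mean IP reads. Its ratio was 2.52 and 2.37 in H1 and 1.37 and 2.06 in MEL1 at S3, and 0.25, 0.28, 1.17 and 0.70 at S4. At S6 it was 2.12 and 2.13 in H1 and 1.92 and 1.81 in MEL1. All S4 preparations were below all others, and the peak was hypomethylated at S4 vs S3 (-1.50 ± 0.37, adjusted p = 0.0222) and hypermethylated at S6 vs S4 (1.34 ± 0.37, adjusted p = 0.0385). Without H1 S4 replicate 1 these were -0.86 (adjusted p = 0.365) and 1.0 (adjusted p = 0.184), and the S6 vs S4 call also ended without H1 S6 replicate 1 (adjusted p = 0.10). With DESeq2 both changes of ITGA6 at 4351 were just under 2-fold (-1.0, adjusted p = 0.111, and 0.99, adjusted p = 0.0864), and neither was called with input and IP normalized apart (adjusted p = 0.139 and 0.107) or in MEL1 alone (-0.70 and 0.95, adjusted p = 0.223 and 0.108). MMP16 at 9416 went the same way. It was 3.72, 3.85, 3.01 and 3.10 at S3, 3.12, 0.66, 1.44 and 1.78 at S4 and 4.08, 3.32, 3.14 and 3.80 at S6 (2.10 ± 0.62 at S6 vs S4, adjusted p = 0.0535). The S6 vs S4 call of this peak ended without H1 S4 replicate 2 (adjusted p = 0.189) or H1 S6 replicate 1 (adjusted p = 0.160), with input and IP normalized apart (1.80, adjusted p = 0.104) and in MEL1 alone (1.84, adjusted p = 0.218).

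LAMB1 at 141 had low ratios that were lowest at S4, with -4.42, -4.56, -3.51 and -3.39 at S3, -5.64, -5.84, -5.73 and -6.42 at S4 and -3.82, -3.58, -3.96 and -3.54 at S6. It was called lower at S4 vs S3 (-2.12 ± 0.55, adjusted p = 0.0296) and higher at S6 vs S4 (2.28 ± 0.55, adjusted p = 0.0195). The first call ended without H1 S4 replicate 1 (adjusted p = 0.222) or MEL1 S3 replicate 2 (adjusted p = 0.109). LAMB1 at 1941 and SDC3 at 468 were also hypomethylated at S4 vs S3 (-5.45 ± 1.46 and -2.44 ± 0.72). Where a stage held no or almost no IP read of a peak, as in LAMB1 at 1941, ITGB5 at 1248, ITGA6 at 5201 and ADAMTS8 at 874, the fitted change depends on the prior count and is no measure of size. No IP read of LAMB1 at 1941 was counted at S4, and its call ended without H1 S4 replicate 1 (adjusted p = 0.185). That of SDC3 ended without H1 S3 replicate 1, H1 S3 replicate 2, H1 S4 replicate 1 or MEL1 S3 replicate 2 (adjusted p = 0.110 to 0.162).

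MMP14 at 3601 went the other way. Its ratio was -0.56 and -1.83 in H1 and -3.43 and -2.92 in MEL1 at S4, and -5.04, -5.08, -6.75 and -7.47 at S6, without overlap (-4.15 ± 0.85, adjusted p = 0.00662). IP reads fell from 40 to 145 per library to 4 to 10, and the call held without each single library. COL6A1 at 1251 had -0.59 and -1.04 in H1 and -4.75 and -3.74 in MEL1 at S4, and -4.22, -3.80, -4.93 and -5.58 at S6 (-2.66 ± 0.72, adjusted p = 0.0368). The H1 preparations at S4 lay apart from the rest, and the call ended with the preparation as a block (adjusted p = 0.150), without H1 S4 replicate 2 (adjusted p = 0.105) or without MEL1 S6 replicate 2 (adjusted p = 0.119). COL5A1 at 4801, with 13 to 33 IP reads at S4 and 0 to 3 at S6, was hypomethylated as well (-4.83 ± 1.32, adjusted p = 0.0380, ending without H1 S6 replicate 2, adjusted p = 0.104, or MEL1 S6 replicate 1, adjusted p = 0.121). ITGB1 at 3212 had 0 to 27 IP reads at S4 and 0 to 1 at S6 (-4.02 ± 1.05, adjusted p = 0.0302).

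**Figure D5:**
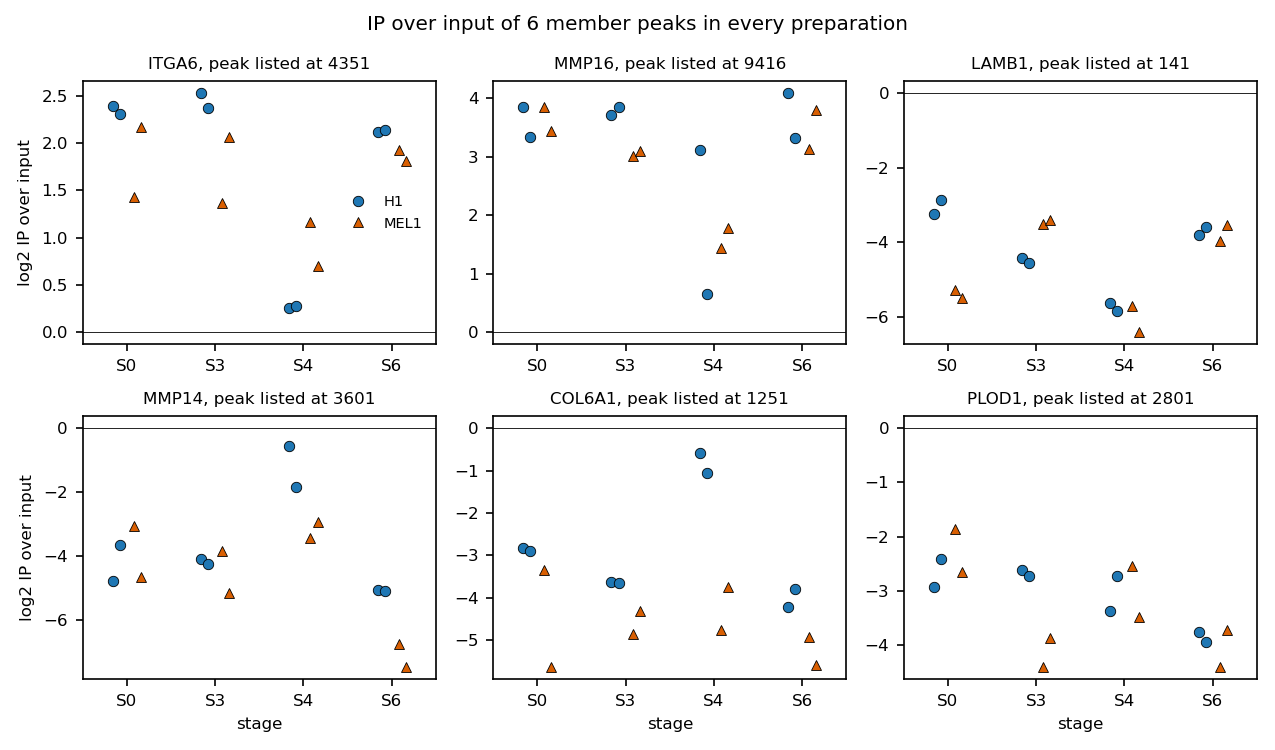
Log2 IP over input of 6 member peaks in every preparation at each stage, with H1 as circles and MEL1 as triangles. ITGA6 at 4351 is lowest at S4 (0.25 to 1.17), LAMB1 at 141 is lowest at S4 (-6.42 to -5.64), and MMP14 at 3601 falls from S4 (-3.43 to -0.56) to S6 (-7.47 to -5.04).

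Other peaks called at S4 vs S3 were hypermethylated from few IP reads. LAMC1 at 2601 had 0 to 3 IP reads at S3 and 3 to 16 at S4 (4.70 ± 1.23, adjusted p = 0.0320), and its ratio was -1.57 and -0.35 in MEL1 and -4.14 and -4.01 in H1 at S4. With the preparation as a block its adjusted p was 0.102, and without MEL1 S3 replicate 2 it was 0.104. LAMC1 at 2451 and MMP14 at 751 had opposite directions in the lines, with a difference between S4 and S3 in the ratio of -0.27 and -1.47 in H1 and of 5.37 and 6.10 in MEL1. MMP14 at 751 was then called lower at S6 vs S4 (-6.46 ± 1.61, adjusted p = 0.0256). Those of LAMC1 at 2451 and MMP14 at 751 at S4 vs S3, and of MMP14 at 751 at S6 vs S4, ended with the preparation as a block (adjusted p = 0.263, 0.371 and 0.188). Without single libraries, LAMC1 at 2451 ended in 6 fits and MMP14 at 751 in 9 at S4 vs S3, the highest adjusted p being without MEL1 S3 replicate 2 in both (0.199 and 0.207). SDC2 at 301 was read mostly in H1, where its ratio was -1.18 and -1.66 at S3 and 2.98 and 3.45 at S4 (3.86 ± 1.25, adjusted p = 0.0805, with a block 0.217). The call of SDC2 at 301 ended in 8 fits that left out 1 library, with the highest adjusted p without H1 S4 replicate 1 (0.247). Without H1 S4 replicate 2 its log2 fold change was 3.35 (adjusted p = 0.208). ITGB1P1 at 560 had 0 to 5 IP reads at S3 and 12 to 22 at S4 (3.36 ± 0.99, adjusted p = 0.0538), and was lost without either H1 S3 library, MEL1 S3 replicate 2 or MEL1 S4 replicate 2 (adjusted p = 0.110 to 0.141).

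ADAMTS8 at 874 was called with few reads behind it. It held 0 to 1 IP reads in the S4 libraries and 14 to 550 in the S6 libraries, and up to 42 input reads at S4 (8.13 ± 1.45 at S6 vs S4, adjusted p = 0.00222, and -7.78 ± 1.77 at S4 vs S3, adjusted p = 0.0158). The lowest S4 ratio, -5.82, was that of H1 S4 replicate 2, which stands apart. Without it the changes were 5.03 (adjusted p = 0.104) and -4.69 (adjusted p = 0.206), and the S4 vs S3 call also ended without H1 S3 replicate 1 (adjusted p = 0.116). ITGB5 at 1248 had no IP read at S4 and 0 to 25 at S6 (6.72 ± 1.74, adjusted p = 0.0310, and 0.124 without MEL1 S6 replicate 1 and 0.10 without H1 S4 replicate 1).

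At S6 vs S0 the hypomethylated peaks were ITGA6 at 5201, ITGB1 at 1262 and PLOD1 at 2801. ITGA6 at 5201 had -2.69, -2.73, -0.68 and -0.24 at S0 and -5.33, -4.91, -6.00 and -6.13 at S6 (-7.23 ± 1.56, adjusted p = 0.0443), with 17 to 117 IP reads per library at S0 and none counted at S6. The ratio of ITGB1 at 1262 was -4.51, -4.26, -2.93 and -2.08 at S0 and -5.28, -6.34, -7.47 and -7.12 at S6 (-4.08 ± 0.96, adjusted p = 0.0625). PLOD1 at 2801 had -2.93, -2.42, -1.86 and -2.66 at S0 and -3.76, -3.95, -4.40 and -3.73 at S6 (-1.52 ± 0.40, adjusted p = 0.0840). The call of PLOD1 at 2801 ended in 10 of the 16 fits without 1 library (adjusted p = 0.107 to 0.286), and those of the ITGA6 and ITGB1 peaks in 6 each. With input and IP normalized apart, PLOD1 at 2801 and ITGB1 at 1262 were not called (adjusted p = 0.144 and 0.107). In all of them the S6 preparations were below those of S0. With the preparation as a block these were no longer called (adjusted p = 0.161, 0.147 and 0.189), and the count of calls also became 0 without either MEL1 S0 library, either MEL1 S6 library or H1 S6 replicate 2, and 1 without H1 S4 replicate 1 or H1 S6 replicate 1. It was 8, 7, 6 and 5 without MEL1 S4 replicate 2, MEL1 S4 replicate 1, H1 S4 replicate 2 and MEL1 S3 replicate 1.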

How the data were processed

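Input and m6A IP libraries of H1 and MEL1 cells at 4 stages were analysed. Per the methods and labels, total RNA was taken with TRIzol, mRNA was purified and sonicated, m6A fragments were pulled down with an antibody kit, and strand-marked libraries were sequenced. The deposited values are raw read counts that the authors made per merged peak from 50-base bins (MeRIPtools, Ensembl v94). The aligner, genome build and peak-calling settings are not given in the sources used here. Reads outside merged peaks are not in these counts, so an input level covers only the peaks of a gene.

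Input counts were summed over the peaks of each gene. Of 7978 genes, 7938 matched a symbol and 40 did not. CPM was scaled by TMM in edgeR 4.0.16 (R 4.3.3). Genes or peaks with a total under 10 reads were left out. Stage and cell line entered edgeR's quasi-likelihood fit of the input libraries, and stage, library type, their interaction and cell line that of the peaks. This fit of the peaks did not pair the input and IP library of a preparation. A fit with the preparation as a block, which pairs them, was an alternative. SE was taken from the F statistic. The log2 IP over input ratio used a prior count of 1. A fold against libraries with at most 3 reads each was computed against 3 reads per library and is a lower bound. DESeq2 1.42.0, other scalings and filters, single lines and fits without single preparations were alternatives. The fits were tested on simulated data.

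Named members were, in each role, the 2 with the highest mean input CPM. Per input comparison, the 5 called members that rose most and the 5 that fell most were added, at a mean of 1 CPM or more. Up to 5 called peaks per direction with the smallest p, the 5 highest and 5 lowest ratios among peaks with at least 10 mean input reads, and up to 5 line differences per comparison with the smallest adjusted p were also named. Results of 1 member among those named by these rules are not reported here. Other genes are named to fill out their role and were chosen after their values were seen. The members and lists were chosen with earlier results of these data known. The figures were drawn with matplotlib 3.10.9.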

Additional observations from a re-analysis of the deposited data

Results flagged for a closer look

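These results were flagged because the change of a member between stages differed between MEL1 and H1 by the test of the interaction itself (edgeR, adjusted over all genes). At S3 vs S0 the change in MEL1 minus that in H1 was 3.96 for GPC3 (log2 fold change 1.56 in H1 and 5.52 in MEL1), -5.52 for THBS1 (2.75 and -2.76), -4.15 for COL2A1 (3.75 and -0.40), -4.78 for FBLN2 (2.05 and -2.73) and 2.46 for SDC4 (-0.27 and 2.19). At S4 vs S3 it was 5.20 for COL2A1 (-0.01 and 5.19), 3.81 for COL1A1 (-0.93 and 2.89), 4.19 for COL9A2 (-1.14 and 3.06), 3.64 for TIMP2 (-0.37 and 3.26) and 3.46 for COL5A1 (-0.11 and 3.345).

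At S6 vs S4 the difference was -4.17 for COL1A1 (1.31 in H1 and -2.86 in MEL1), -3.39 for GPC3 (0.33 and -3.06), 3.42 for COL9A2 (0.19 and 3.61), 2.75 for COL2A1 (-0.14 and 2.605) and -1.81 for SDC4 (1.16 and -0.65). At S6 vs S0 it was 3.79 for COL2A1 (3.60 and 7.39), 4.44 for ITGA3 (-0.85 and 3.59), 4.45 for COL9A2 (1.39 and 5.84), 3.07 for MMP14 (0.35 and 3.42) and 3.39 for HSPG2 (0.28 and 3.67). MEL1 also held more hepatic, ductal and exocrine marker RNA at S3 to S6, and the part of that difference in these values was not tested.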

How the results depend on the processing

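Counts of calls at the outer comparisons moved little, and leaving out 1 preparation at a time gave 30 to 37 members at S3 vs S0 (35 reported), 41 to 46 at S6 vs S0 (44) and 19 to 27 for MEL1 vs H1 (22). The same fits gave 43 to 50, 29 to 43, 26 to 35 and 38 to 48 line differences at S3 vs S0, S4 vs S3, S6 vs S4 and S6 vs S0. At S4 vs S3 the 6 members became 12 with DESeq2, 2 without the cell line term, 12 in H1 alone, 28 in MEL1 alone and 3 to 9 without 1 preparation. At S6 vs S4 the 7 became 12 with DESeq2, 2 without the cell line term, 20 in H1 alone, 26 in MEL1 alone, 4 without both MEL1 S4 preparations and 5 to 12 without 1 preparation. Without both MEL1 S4 preparations, the fall of FN1 was -0.97 (adjusted p = 0.166), that of ADAMTS7 -0.69 (adjusted p = 0.246) and that of COL27A1 -0.76 (adjusted p = 0.319), and the calls of LOX, COL9A2, ADAM11 and ADAM15 ended too (adjusted p = 0.176 to 0.308). Without the cell line term those of MMP17, ADAM23, ADAMTS8, ADAMTS15, LOX, FN1, COL9A2, ADAM11, ADAM15 and COL27A1 ended (adjusted p = 0.103 to 0.397). This alternative, like the line differences by DESeq2, by RLE scaling and without single preparations, was chosen after seeing the data.

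The m6A calls depended on the processing throughout. At S3 vs S0 the 0 calls became 1 with DESeq2, 17 in H1 alone and 27 in MEL1 alone. At S4 vs S3 the 16 became 26 with DESeq2, 9 with input and IP normalized apart, 1 with peaks summed over the gene, 164 in H1 alone, 44 in MEL1 alone, 42 without both MEL1 S4 preparations and 4 to 22 without 1 preparation. At S6 vs S4 the 21 became 46 with DESeq2, 2 summed over the gene, 139 in H1 alone, 59 in MEL1 alone, 38 without both MEL1 S4 preparations and 9 to 29 without 1. At S6 vs S0 the 3 became 20 with DESeq2, 1 normalized apart, 0 summed over the gene, 30 in H1 alone, 49 in MEL1 alone, 24 without both MEL1 S4 preparations and 0 to 8 without 1. In H1 alone LAMC1 at 2451 was -2.27 and MMP14 at 751 -4.20 at S4 vs S3, and MMP14 at 751 was 2.66 at S6 vs S4. Without both MEL1 S4 preparations these were -1.13, -3.0 and 0.99, and ADAMTS8 at 874 was 0 at S4 vs S3 in MEL1 alone. The median ratios of the member peaks were -1.17, -1.54 and -1.95 at S0, S3 and S4 with a prior count of 5, -2.05 at S4 normalized apart and -2.58 at S6 for peaks with at least 10 input reads. In MEL1 alone the calls of ITGB1P1 at 560, SDC2 at 301, ITGB5 at 1248, ITGB1 at 3212 and COL6A1 at 1251 ended (adjusted p = 0.140 to 0.859), and so did those of SDC3 at 468 normalized apart (adjusted p = 0.112) and of LAMC1 at 2601 and ITGB1P1 at 560 without both MEL1 S4 preparations (adjusted p = 0.217 and 0.108). The cause of these shifts was not tested.

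The labels do not say what a replicate number shares across stages, and the numbers were not taken as pairs because in neither line did every pair of same-numbered input libraries correlate over 0.1 in its deviations. In H1 the 6 correlations ran from -0.008 to 0.052, and in MEL1 all 6 were positive, from 0.066 to 0.128, with 4 over 0.1. With the number as a block, 34, 5, 6 and 43 members were called at S3 vs S0, S4 vs S3, S6 vs S4 and S6 vs S0. With the preparation as a block, pairing input with IP (r = -0.218 to 0.067 over 8 pairs), 0, 19, 23 and 0 peaks were. Over all alternatives, 1456 values of named genes and peaks kept their direction and side of the threshold, 158 dropped below it and 7 changed direction or went to 0. Low IP depth limits the m6A values of the MEL1 S4 preparations.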
